A study of Mus musculus with 6 samples.

Results

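The transcripts of 10 early response transcription factors were followed in mouse hearts after ischemia-reperfusion (I/R), in which a coronary flow stop is followed by renewed flow: the zinc finger factors Egr1, Egr2 and Egr3, the orphan nuclear receptors Nr4a1, Nr4a2 and Nr4a3, the Krüppel-like factors Klf2, Klf4 and Klf6, and Myc. They were chosen by gene symbol. Each of the 10 matched 1 row among the 55359 genes of the deposited table, no row of the table overlapped theirs, and each passed the filter on low counts that left 20489 genes. All mice were C57BL/6 and had received an AAV9 vector by tail vein, carrying an shRNA against YTHDF2 or a negative control (NC) shRNA. The construct joined GFP to a cTNT promoter, a cardiomyocyte promoter. Surgery came 4 weeks later, and every heart had 45 min of ischemia and 24 h of reperfusion. The 3 libraries labelled NC shRNA are called shNC 1, 2 and 3, and the 3 labelled YTHDF2 shRNA are called shYthdf2 1, 2 and 3. No uninjured or uninjected heart is among them, and the labels give neither the age of the mice nor whether a library is 1 animal.

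Early response genes are transcribed within minutes of a stimulus, without new protein synthesis, and their mRNAs are short-lived. The ERK kinases act on the Egr genes through SRF and its ELK partners, cyclic AMP acts on the Nr4a genes through CREB, and fluid shear acts on Klf2 through the kinase ERK5 and MEF2 factors. In the heart these factors are known from ischemia, stretch and adrenergic stimulation, in cardiomyocytes as well as in endothelial and immune cells. YTHDF2 is a reader of N6-methyladenosine (m6A) that promotes the decay of the mRNAs it binds.

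The libraries held 67023813 to 77561552 counts, so a gene without counts lies under 3 counts, or 0.0388 to 0.0443 CPM (counts scaled to library size), a limit that covers counting error only. Ythdf2 itself did not separate the labels, with 20.7, 24.3 and 27.0 CPM in shNC 1, 2 and 3 against 25.1, 25.6 and 32.7 CPM in shYthdf2 1, 2 and 3, so every difference below is one between labels. The closest of the 15 pairs of libraries were shYthdf2 1 and 2, with a root mean square difference of 0.516 on the log2 CPM scale over 13855 genes, where the other pairs lay between 0.696 and 1.11. Over these genes shNC 3 was farther from shNC 1 and 2 (1.05 and 1.11) than from shYthdf2 1, 2 and 3 (0.790, 0.780 and 0.823). Over the 10 factors alone shYthdf2 1 and 2 differed by 0.156. The labels do not say whether replicates are separate animals, so p-values here reflect sample-to-sample spread of unknown origin, possibly technical. The 12 cardiomyocyte markers were detected in every library, at a summed level from 24534 CPM in shNC 3 to 62762 CPM in shNC 2. In whole heart RNA, fewer cells of a type and less RNA per cell cannot be told apart.

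None of the 10 factors passed the test between the labels. In the quasi-likelihood test of edgeR, 0 of 10 had an adjusted p under 0.05, where 0.00976% of all genes tested did, and 0 of 10 had an unadjusted p under 0.05, where 3.65% did. DESeq2 also called 0 of 10 (0.187% of its genes), and limma on FPKM (fragments scaled to gene length and library size) called 0 of 10, where it called 0% of 35506 genes on log2(FPKM + 0.5) and 0.00282% on log2(FPKM + 0.1). The log2 fold change, shYthdf2 minus shNC, was above 0 in 7 factors and below 0 in Nr4a2, Klf2 and Klf4, and its median was 0.22. Over all genes tested 48.6% were above 0, with a median of -0.01. The genes that passed edgeR were Kctd12, listed at 0 counts in all shNC libraries and at 28.3 to 37.7 CPM in shYthdf2, and Eif4e, which encodes the cap-binding translation factor, at 12.3 to 15.6 CPM across shNC versus 71.9 to 79.1 CPM in shYthdf2 (edgeR adjusted p = 0.00877 and 0.0203). Neither passed edgeR with shYthdf2 1 and 2 summed (adjusted p = 0.117 and 0.226), with replicate number as a block (0.491 each), or without any 1 shYthdf2 library (0.0793 to 0.107 for Kctd12 and 0.0793 to 0.168 for Eif4e). Eif4e also did not pass without shNC 1 (0.0614), without shNC 2 (0.166) or on unscaled totals (0.0683). Both genes did pass DESeq2 (adjusted p = 1.91e-24 for Kctd12 and 1.08e-16 for Eif4e). They also passed edgeR without shNC 3 (adjusted p = 0.00577 and 0.0125). With limma on log2(FPKM + 0.5) neither passed (adjusted p = 0.0605 and 0.179). The groups did not overlap in 1 of the 10 factors, Egr2, beside 9.51% of all genes tested (4.95% higher, as Egr2 was).

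Without shNC 3, 6 of 10 factors (Egr1, Egr2, Egr3, Klf4, Klf6 and Myc) had an unadjusted edgeR p under 0.05, beside 19.6% of the genes then tested, 8 were above 0 and the median was 0.80. Without shYthdf2 3 these were Egr1 and Nr4a1, 2 of 10 beside 3.39% of genes, with 9 above 0 and a median of 0.41. Without shNC 1, shNC 2, shYthdf2 1 or shYthdf2 2 it was 0 of 10 each time, beside 3.55%, 2.39%, 2.15% and 2.36% of genes. The median was then 0.18, 0.07, 0.20 and 0.17, in that order.

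The factors were spread between libraries of the same label, as were most genes. In 8 of 10 factors shNC 3 lay above both other shNC libraries, and in Klf2 and Klf4 it lay below both. In 9 of 10 factors shYthdf2 3 lay below both other shYthdf2 libraries, with Egr3 the exception. Of all genes tested, 42.1% had shNC 3 above both other shNC libraries and 38.9% below both, and 41.1% had shYthdf2 3 below both others of its label. Both together, shNC 3 above and shYthdf2 3 below, held in 7 of 10 factors and in 17.6% of all genes tested. The median of the 10 centred log2 levels (log2 CPM minus the 6-library mean of the gene) was -0.42, -0.40 and 0.31 in shNC 1, 2 and 3. It was 0.44, 0.41 and -0.30 in shYthdf2 1, 2 and 3.

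**Figure D1:**
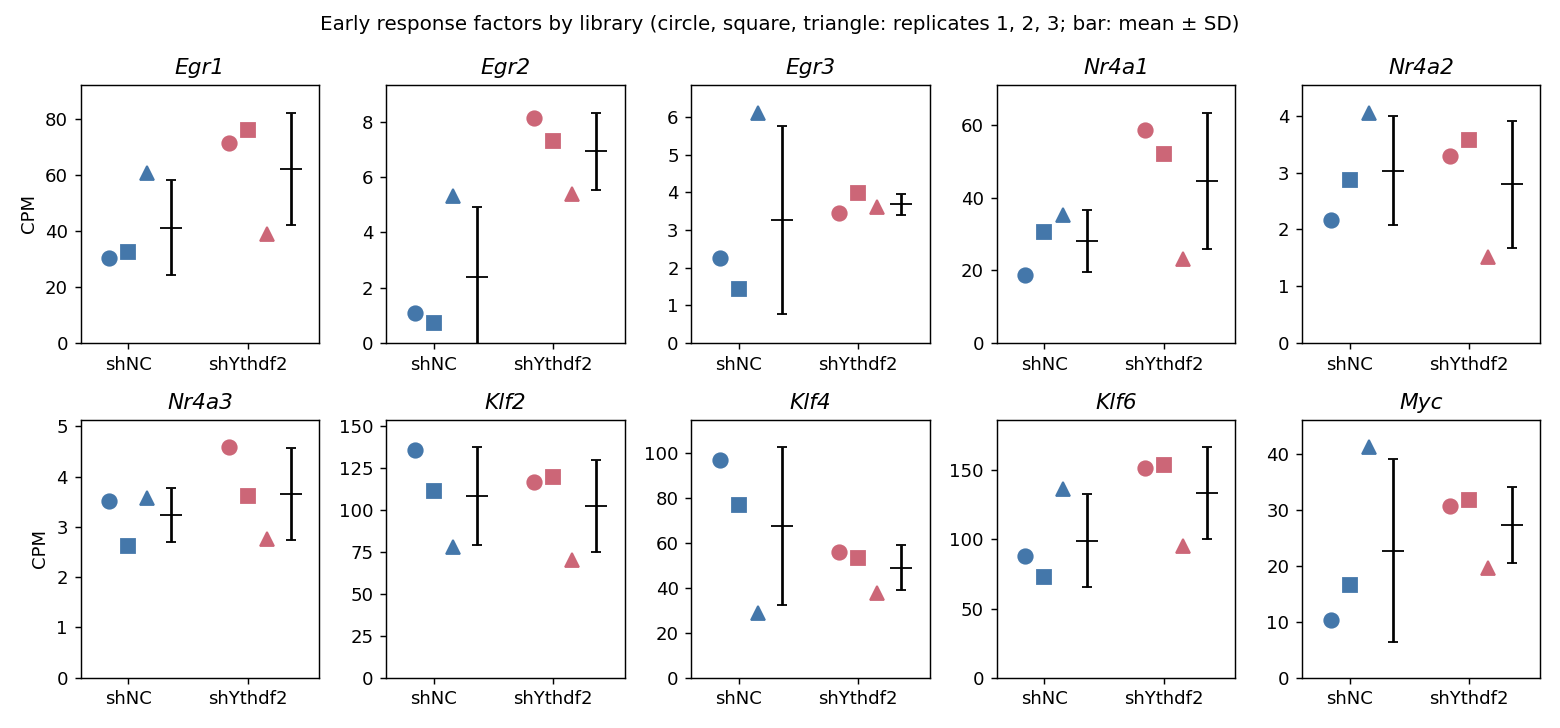
CPM (vertical axis, linear from 0) of the 10 factors in the 3 shNC (blue) and 3 shYthdf2 (red) libraries, with the mean and SD of each group in black; the lower end of the Egr2 shNC bar lies below the axis. For Egr1, Klf6 and Myc the triangle of shNC 3 is nearer to shYthdf2 1 and 2 than to shNC 1 and 2, and the triangle of shYthdf2 3 is nearer to shNC 2 than to shYthdf2 1 and 2.

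**Figure D2:**
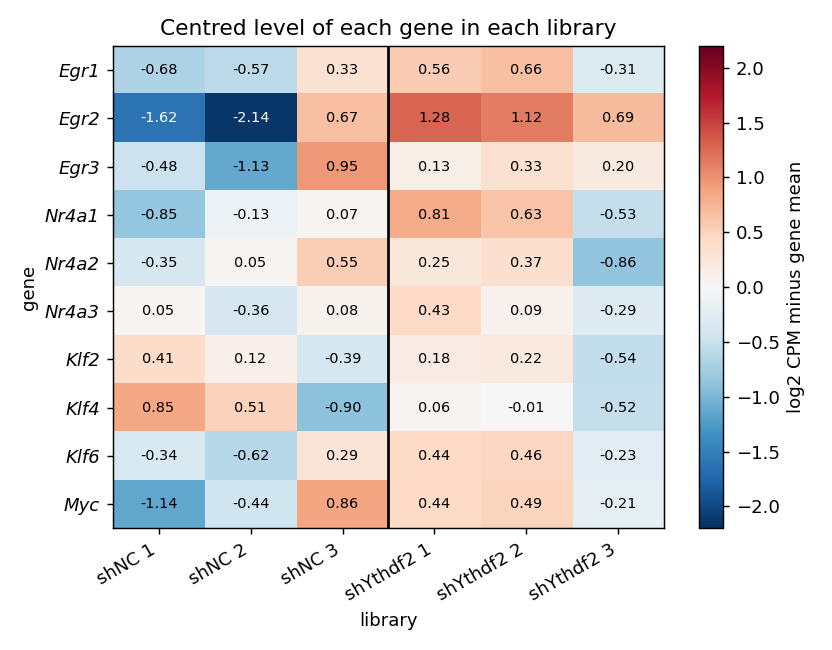
Log2 CPM of each factor (rows) in each library (columns), less the mean of that factor over the 6 libraries, from blue (low) to red (high). Egr2 has the widest range, from -2.14 in shNC 2 to 1.28 in shYthdf2 1, and Klf4 runs against the Egr genes in the shNC libraries.

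Levels were compared between factors only on the FPKM scale, which is per length. Klf2 was the most abundant, at 50.9 ± 11.3 FPKM (SD over the 6 libraries, range 34.0 to 64.1). Klf6 followed at 24.2 ± 8.42 FPKM (13.2 to 31.9) without reaching the lowest Klf2 value. Klf4 had 16.8 ± 6.60 FPKM (9.51 to 27.7) and Egr1 10.5 ± 4.52 FPKM (5.80 to 15.5), and each overlapped its neighbour above. Nr4a1 had 9.40 ± 4.31 FPKM (4.63 to 15.3) and Myc 8.47 ± 4.46 FPKM (3.26 to 15.3), ranges that overlapped each other and that of Egr1. The other members lay below these in every library: Egr2 at 1.26 ± 0.85 FPKM, Egr3 at 0.73 ± 0.39, Nr4a2 at 0.65 ± 0.25 and Nr4a3 at 0.52 ± 0.13, with ranges that overlapped. At 24 h of reperfusion each family therefore had 1 abundant member or more and, in the EGR and NR4A families, a pair of low ones.

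Egr1 encodes a zinc finger activator that is the classic readout of ERK and SRF signalling. The gene (ENSMUSG00000038418) lies on chromosome 18, 34992876 to 34998037 on the plus strand (coordinates here and below as deposited, build not stated). Its level was 30.2, 32.5 and 60.6 CPM across shNC 1, 2 and 3 versus 71.3, 76.1 and 39.0 CPM across shYthdf2 1, 2 and 3. The shYthdf2 3 value lay below that of shNC 3, so the groups overlapped. Means were 41.1 ± 17.0 CPM and 62.1 ± 20.2 CPM (SD, n = 3 each), giving a log2 fold change of 0.60 ± 0.36 (SE) and a 95% interval from -0.25 to 1.44 (edgeR adjusted p = 0.976). The exact two-sided permutation test of Egr1 gave p = 0.2, where 3 against 3 libraries cannot go below 0.1.

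Egr2 encodes a relative of EGR1 known from Schwann cell myelination and from macrophage and lymphocyte activation. It lies on chromosome 10, 67371413 to 67378018 on the plus strand (ENSMUSG00000037868). It had 1.07, 0.738 and 5.31 CPM in the shNC libraries in order of replicate, and 8.12, 7.29 and 5.39 CPM in the shYthdf2 libraries. All 3 shYthdf2 values lay above all 3 shNC values, but shYthdf2 3 exceeded shNC 3 by only 0.0869 CPM. On FPKM (1.57 in shNC 3 and 1.41 in shYthdf2 3) and on CPM of unscaled totals the groups of Egr2 overlapped. Means were 2.37 ± 2.55 CPM and 6.93 ± 1.40 CPM (SD, n = 3 each). The log2 fold change of 1.55 ± 0.72 (SE) had a 95% interval from -0.14 to 3.24 (edgeR adjusted p = 0.976, exact permutation p = 0.1), and DESeq2 gave Egr2 an adjusted p of 0.761 and an unadjusted p of 0.0160 (under 0.05 in 5.19% of its genes). Without shNC 3 the log2 fold change of Egr2 was 2.94 and the edgeR adjusted p 0.0339, a call that 0.993% of the genes then tested shared.

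Egr3, a target of EGR1 in lymphocytes and neurons, lies on chromosome 14, 70314652 to 70320063 on the plus strand (ENSMUSG00000033730). Its level was 2.25, 1.43 and 6.12 CPM in shNC 1, 2 and 3, beside 3.45, 3.98 and 3.62 CPM of shYthdf2 1, 2 and 3. Its shNC libraries thus held both the lowest and the highest value, while the shYthdf2 libraries lay close together. The log2 fold change was 0.17 ± 0.53 (SE; edgeR adjusted p = 0.984) and turned to -0.03 without shNC 1 and -0.18 without shNC 2, and was 1.00 without shNC 3. Within a library the Egr1 to Egr2 ratio of FPKM was 21.5, 33.9 and 8.70 under shNC against 6.66, 7.93 and 5.49 under shYthdf2.

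Nr4a1, also known as Nur77, encodes an orphan receptor induced by cyclic AMP, calcium and inflammatory signals. The gene (ENSMUSG00000023034) spans 101152150 to 101172676 on the plus strand of chromosome 15. Its 18.6, 30.6 and 35.2 CPM in the shNC libraries faced 58.7, 52.0 and 23.2 CPM in the shYthdf2 libraries. Only shYthdf2 1 and 2 lay above every shNC library, and shYthdf2 3 lay between shNC 1 and shNC 2. Means were 28.1 ± 8.53 CPM and 44.7 ± 18.9 CPM (SD, n = 3 each). For Nr4a1 this is a log2 fold change of 0.67 ± 0.39 (SE), with a 95% interval from -0.24 to 1.57 (edgeR adjusted p = 0.976, exact permutation p = 0.3).

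Nr4a2, known as Nurr1 and required for dopamine neurons, lies on chromosome 2, 56996842 to 57014015 on the minus strand (ENSMUSG00000026826). It had 2.16, 2.88 and 4.06 CPM across shNC 1, 2 and 3 versus 3.30, 3.58 and 1.51 CPM across shYthdf2 1, 2 and 3. The highest value was that of shNC 3 and the lowest that of shYthdf2 3. Its log2 fold change was -0.12 ± 0.43 (SE; edgeR adjusted p = 0.986). Nr4a3, known as NOR1, lies on chromosome 4, 48045153 to 48086445 on the plus strand (ENSMUSG00000028341). It was the steadiest of the 10, at 3.51, 2.63 and 3.58 CPM against 4.58, 3.62 and 2.76 CPM, with a log2 fold change of 0.17 ± 0.31 (SE; edgeR adjusted p = 0.976). The SD of its log2 CPM over the 6 libraries was 0.29, beside 1.48 for Egr2.

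The Nr4a1 to Nr4a2 ratio was read within each library. Nr4a1 exceeded Nr4a2 in FPKM by 10.1, 12.4 and 10.04 times in shNC 1, 2 and 3. In shYthdf2 1, 2 and 3 the ratio was 20.8, 16.9 and 17.9, so that all shYthdf2 libraries, including the third, lay above all shNC libraries (exact two-sided permutation p = 0.1 on log ratios). This was 1 of 9 ratios of pairs of factors that were computed, and 2 of the 9 did not overlap between the labels, the other being Egr1 to Egr2. Over all 45 pairs of the factors 9 ratios did not overlap, and each of them held Egr2 or Nr4a2. Pairs that share a factor are not independent. How often ratios of other gene pairs fail to overlap was not computed, so these counts have no background share and are description only. The ratios were picked with the values known and their p-values, which cannot go below 0.1, are not adjusted.

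**Figure D3:**
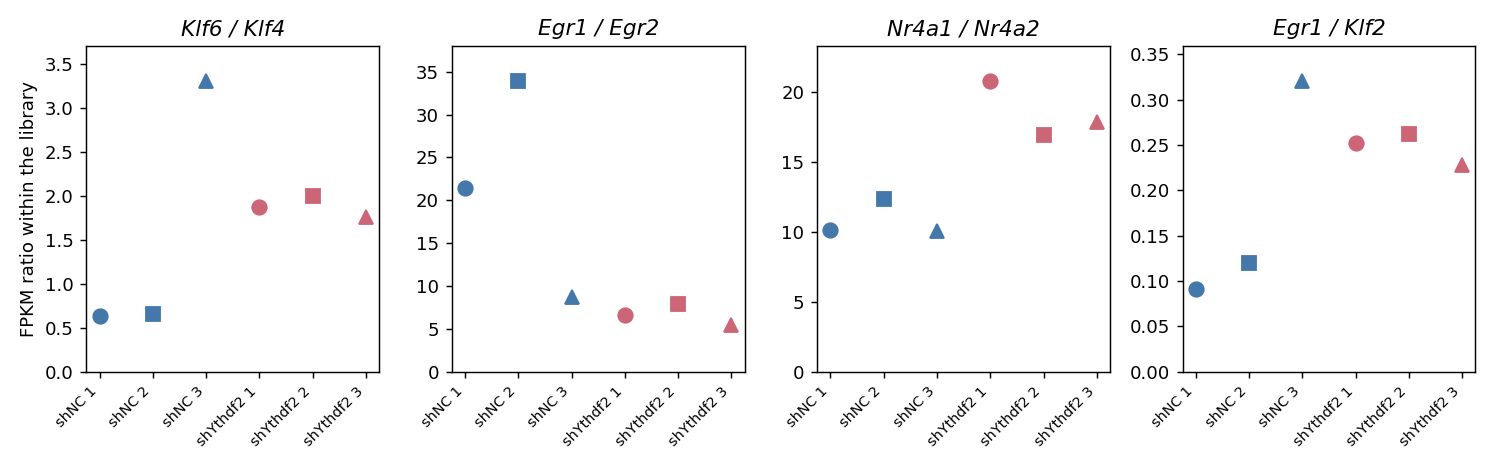
Ratio of FPKM of a pair of factors (vertical axis, linear from 0) within each library, shNC in blue and shYthdf2 in red. The Nr4a1 to Nr4a2 ratio is 10.04 to 12.4 in shNC and 16.9 to 20.8 in shYthdf2, while the Klf6 to Klf4 and Egr1 to Klf2 ratios are highest in shNC 3.

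The windows before the annotated starts of these genes are shown for the 3 NR4A genes, which hold several cyclic AMP response cores, for Egr2, the factor furthest from 0, and for Klf2, the most abundant. A search of RefSeq promoters (build GRCm38.p6, 250 bases before to 50 after a start) found 7 of the 10 factors. Egr1, Egr3 and Myc had no window in this set, so their promoters were not searched. The core TGACG, searched on both strands and so also read as CGTCA, occurred at 4 places in each of Nr4a1, Nr4a2 and Nr4a3. At least 4 such cores were present in 0.231% of 32851 promoter windows, and at least 1 in 20.8%. The full element TGACGTCA, which overlaps the core, was in none of the 7 factors and in 1.79% of windows. Egr2 has 5 starts in the table. A CArG box, the site of SRF, lies in 4 of these windows and not in that of the first start, and 3 of the 5 hold TGACG cores. These 3 windows overlap and hold the same CArG box, CCATATATGG, and the same cores, so they are not separate sites. The remaining box, CCTTTTTTGG, lies in the window of another start. The window shown, chosen after the search, is of the overlapping ones and has the box and the cores. Its CArG box begins 73 bases before the start. A single window holds a CArG box in 1.63% of cases. The MEF2 site in Klf2, which reads CTAAATTTAG and begins 118 bases before the start, has a match in 0.557% of windows. The 250 bases before each start follow, 5′ to 3′ on the strand of the gene, with the TGACG or CGTCA cores, the CArG box and the MEF2 site in capitals. These sequences come from RefSeq, and a match describes letters and not binding.

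Nr4a1 (chr15:101266596-101266845, plus strand): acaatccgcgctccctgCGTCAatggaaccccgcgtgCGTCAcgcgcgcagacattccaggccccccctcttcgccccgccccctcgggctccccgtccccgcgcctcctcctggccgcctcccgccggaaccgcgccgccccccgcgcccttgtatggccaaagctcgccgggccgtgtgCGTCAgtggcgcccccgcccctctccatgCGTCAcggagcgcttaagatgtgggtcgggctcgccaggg
Nr4a2 (chr2:57124004-57124253, minus strand): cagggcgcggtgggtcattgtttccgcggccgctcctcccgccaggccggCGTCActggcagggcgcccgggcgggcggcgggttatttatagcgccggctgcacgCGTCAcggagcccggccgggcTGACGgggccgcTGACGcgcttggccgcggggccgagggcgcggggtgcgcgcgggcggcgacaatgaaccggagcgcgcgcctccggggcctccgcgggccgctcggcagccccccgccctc
Nr4a3 (chr4:48045055-48045304, plus strand): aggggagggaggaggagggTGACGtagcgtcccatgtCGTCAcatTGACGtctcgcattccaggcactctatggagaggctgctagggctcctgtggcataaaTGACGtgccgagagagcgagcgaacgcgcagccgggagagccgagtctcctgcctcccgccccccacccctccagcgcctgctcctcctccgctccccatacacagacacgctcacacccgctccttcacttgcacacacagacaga
Egr2 (chr10:67537620-67537869, plus strand): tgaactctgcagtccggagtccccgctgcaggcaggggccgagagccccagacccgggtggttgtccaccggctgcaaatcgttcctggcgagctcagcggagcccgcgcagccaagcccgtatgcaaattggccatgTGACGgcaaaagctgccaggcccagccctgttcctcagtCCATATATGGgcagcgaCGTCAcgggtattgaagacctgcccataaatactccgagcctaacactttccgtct
Klf2 (chr8:72318812-72319061, plus strand): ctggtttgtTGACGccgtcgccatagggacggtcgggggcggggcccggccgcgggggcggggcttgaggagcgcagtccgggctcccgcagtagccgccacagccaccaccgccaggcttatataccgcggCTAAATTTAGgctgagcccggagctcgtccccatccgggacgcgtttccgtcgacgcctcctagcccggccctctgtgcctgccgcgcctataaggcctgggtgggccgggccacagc

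The promoter windows of these factors were rich in G and C, with a median of 64.7% over the 11 starts of the 7 factors and 52.7% over all windows, and the core holds a CG pair. The EGR site GCGNGGGCG, to which EGR proteins bind, was present on either strand in Nr4a1, Nr4a2, Klf2 and Klf4 and in 5.55% of windows. The E-box CACGTG of MYC and MAX was in Egr2, Klf4 and Klf6 (7.15% of windows). TATAAA, also searched on both strands, was in Nr4a2 only on the opposite strand, where the printed letters read TTTATA (13.6% of windows on either strand). Neither the NR4A site AAAGGTCA (1.51%) nor the AP-1 site TGANTCA (7.81%) was in any of the 7.

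The mRNAs were searched for sequence features of short-lived transcripts. In the longest protein-coding transcript of each gene (GENCODE M21), the 3′ untranslated region held the pentamer ATTTA of AU-rich decay elements in 10 of 10 factors, where 69.0% of 15041 tested genes held it. Its density lay above the median of all genes, 1.27 per kilobase, in 9 of 10 factors, with Klf4 at 1.02 the exception. Nr4a1 had 5.52 and Myc 4.52 per kilobase, above 95.1% and 91.8% of genes. Klf2, Nr4a3 and Egr1 lay near the middle, above 51.8%, 57.4% and 57.9% of genes. The pentamer holds A and T only. The A and T content of the 3′ untranslated region had a median of 59.5% over the factors and 55.3% over all genes. Of the 10 factors 7 lay above the median of all genes. The longer element TTATTTATT was in none of the 10 (8.12% of all genes). GGACT, a frequent form of the m6A motif, did not set the factors apart: 5 of 10 lay above the median density of 1.05 per kilobase of transcript. Myc was the highest of them at 2.57 per kilobase and Nr4a2 the lowest at 0.28.

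Klf2 encodes a factor that keeps endothelium quiescent and anticoagulant under laminar flow. The gene (ENSMUSG00000055148) spans 73072877 to 73075500 on the plus strand of chromosome 8. It had 135.8, 111.1 and 77.9 CPM across shNC 1, 2 and 3 versus 116.4, 119.5 and 70.4 CPM across shYthdf2 1, 2 and 3. The third library was the lowest within each label, and the means of 108.3 ± 29.1 CPM and 102.1 ± 27.5 CPM (SD, n = 3 each) were close. Its log2 fold change of -0.08 ± 0.29 (SE) had a 95% interval from -0.77 to 0.60 (edgeR adjusted p = 0.986), so these data leave changes within that interval possible.

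Klf4, a relative of Klf2 in endothelium that also acts in smooth muscle and macrophages, is on chromosome 4, 55530603 to 55532453 on the minus strand (ENSMUSG00000003032). Its level was 96.9, 76.6 and 28.7 CPM across the shNC libraries versus 56.1, 53.4 and 37.5 CPM across the shYthdf2 libraries. It was highest in shNC 1 and 2 and lowest in shNC 3, so the shYthdf2 libraries all lay inside the shNC range. The log2 fold change was -0.46 ± 0.42 (SE; edgeR adjusted p = 0.976, exact permutation p = 0.5), from -0.82 without shNC 3 to -0.10 without shNC 1.

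Klf6 encodes a widely expressed factor induced by injury, and lies on chromosome 13, 5911481 to 5920393 on the plus strand (ENSMUSG00000000078). It had 88.3, 72.5 and 136.7 CPM across shNC 1, 2 and 3 versus 151.4, 153.7 and 95.4 CPM across shYthdf2 1, 2 and 3. As with Egr1, shNC 3 lay near shYthdf2 1 and 2, and shYthdf2 3 near shNC 1. Its log2 fold change was 0.43 ± 0.30 (SE), the 95% interval running from -0.28 to 1.14 (edgeR adjusted p = 0.976). Klf6 and Klf4 exchanged rank between libraries: the ratio of their FPKM was 0.63 and 0.66 in shNC 1 and 2, 3.31 in shNC 3, and 1.875, 1.9996 and 1.765 in the shYthdf2 libraries.

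Myc encodes a basic helix-loop-helix factor that pairs with MAX and raises ribosome biogenesis and growth. The gene (ENSMUSG00000022346) spans 61857240 to 61862199 on the plus strand of chromosome 15. Its 10.2, 16.6 and 41.2 CPM in shNC 1, 2 and 3 enclosed the 30.7, 31.7 and 19.5 CPM of shYthdf2 1, 2 and 3. The highest and the lowest library both carried the NC label, and the log2 fold change of 0.27 ± 0.49 (SE; edgeR adjusted p = 0.976, exact permutation p = 0.8) turned to -0.07 without shNC 1 and reached 1.03 without shNC 3.

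**Figure D4:**
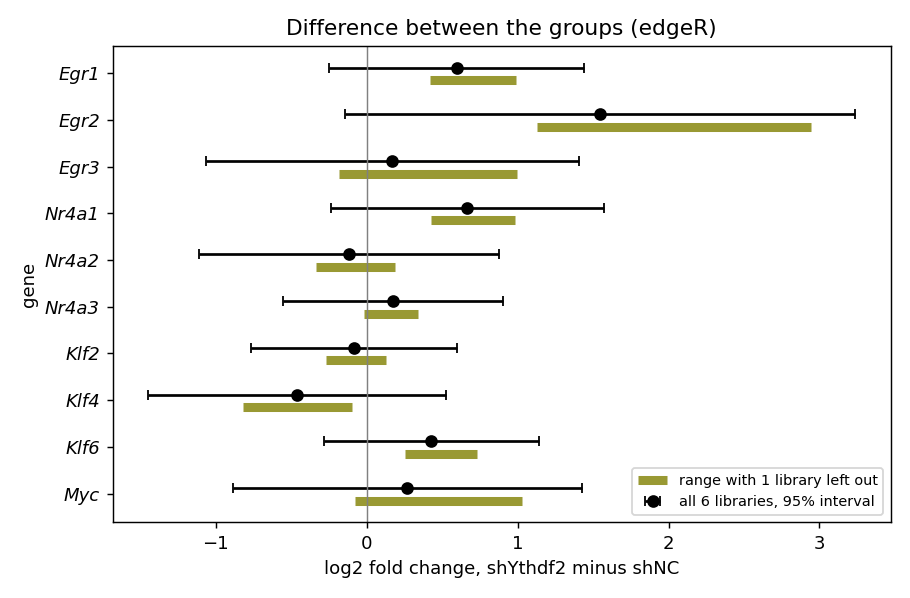
Log2 fold change of each factor, shYthdf2 minus shNC (horizontal axis), with its 95% interval from edgeR over all 6 libraries (black) and the range of the 6 fits with 1 library left out (olive). All 10 intervals include 0, and the range crosses 0 for Egr3, Nr4a2, Nr4a3, Klf2 and Myc.

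The profiles over the 6 libraries were compared by the root mean square difference of the centred log2 CPM, a description of these libraries in which shYthdf2 1 and 2 weigh as a close pair. The closest of the factors were Egr1 and Klf6, at 0.172, followed by Egr1 and Nr4a1 at 0.258. The most unlike were Egr2 and Klf4, at 1.82. Outside the 10 factors, 7094 to 12203 genes were compared with each of Egr1, Nr4a1, Klf2, Klf4 and Myc, and the nearest are named. The nearest profiles to Egr1 were those of Spry4 (0.0684), a feedback inhibitor of receptor tyrosine kinase signalling, Pygl (0.0818), the liver form of glycogen phosphorylase, and Hrh2 (0.0876), a histamine receptor. Spry4 had 16.5, 20.5 and 35.7 CPM across shNC 1, 2 and 3 versus 40.3, 43.0 and 23.5 CPM across shYthdf2 1, 2 and 3, the order of libraries that Egr1 had. It was picked for its likeness to Egr1 over these libraries, so the shared order is no separate result. The nearest to Nr4a1 were Marcksl1 (0.121), 2410002F23Rik (0.131) and the kinase anchor gene Akap12 (0.138). Those to Klf2 were Sh3tc1 (0.0717), Bend5 (0.0767) and Ccdc82 (0.0795), and those to Klf4 were Usp54 (0.0622), 4930516B21Rik (0.0979) and the adenosine receptor gene Adora2a (0.101). Nearest to Myc were Sla (0.0939), an adaptor of lymphoid and myeloid cells, Cd80 (0.110), a co-stimulatory ligand of antigen-presenting cells, and Pmaip1 (0.134), a pro-apoptotic BCL2 family gene.

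Genes around the factors were read from lists. Of 22 other immediate early genes, 20 were higher in shYthdf2 and 2 lower, with a median log2 fold change of 0.33, beside 48.6% of all genes above 0, and 0 passed edgeR (0 at an unadjusted p under 0.05). Fos, the AP-1 subunit, had 14.70, 11.98 and 27.97 CPM across shNC 1, 2 and 3 versus 39.8, 38.4 and 20.6 CPM across shYthdf2 1, 2 and 3. Fosb had 2.04, 0.649 and 6.10 CPM against 8.19, 8.09 and 4.61 CPM. In both, as in Egr1, shYthdf2 3 lay below shNC 3. Jun alone of this list did not overlap between labels, at 55.7, 42.0 and 53.0 CPM against 62.1, 59.2 and 65.2 CPM (edgeR adjusted p = 0.976).

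Upstream genes of the SRF, CREB, MEF2 and ERK routes were near 0 as a list: 12 of 23 were higher, with a median of 0.02, and 0 passed. Srf had a log2 fold change of 0.48 and Creb1 of -0.25. Mef2c, a cardiac MEF2 gene, was at 2.51, 35.8 and 26.8 CPM across shNC versus 7.13, 12.9 and 3.89 CPM across shYthdf2. The EGR corepressors Nab1 and Nab2, of which Nab2 is known as an EGR target, had log2 fold changes of 0.45 ± 0.17 (SE) and 0.38 ± 0.25 (SE; edgeR adjusted p = 0.976 each). Nab1 did not overlap, at 25.7, 22.9 and 28.2 CPM against 33.2, 36.0 and 35.5 CPM. Egr4 did not pass the filter.

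Among 11 EGR targets 9 were higher, with a median of 0.29, and 0 passed. Thbs1, which encodes thrombospondin 1, had 33.6, 30.1 and 142.7 CPM across shNC 1, 2 and 3 versus 266.8, 286.1 and 63.9 CPM across shYthdf2 1, 2 and 3. Tnf had 1.26, 2.80 and 2.74 CPM against 9.70, 8.27 and 1.34 CPM, so that shYthdf2 3 lay within the shNC range of each. Of 20 MYC targets, mostly nucleolar and ribosome biogenesis genes, 19 were higher, with a median of 0.31, and 0 passed. Nolc1, a nucleolar phosphoprotein gene, had 22.7, 34.7 and 46.7 CPM across shNC versus 56.6, 54.2 and 48.3 CPM across shYthdf2. The MYC target median was -0.47, -0.46 and 0.34 for shNC 1, 2 and 3 and 0.21, 0.22 and 0.12 for shYthdf2 1, 2 and 3 on the centred log2 scale, so shNC 3 was again the highest, as for Myc itself. In the MYC network 9 of 14 genes were higher (median 0.09), with Mxd1, a MAX partner that represses, at 16.2, 16.4 and 24.2 CPM against 37.0, 35.5 and 14.0 CPM.

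Endothelial targets of KLF2 and KLF4 went both ways, with 5 of 10 higher, a median of -0.04 and 0 past the threshold. Nos3, the endothelial nitric oxide synthase, had a log2 fold change of 0.37. Edn1, the endothelin gene that KLF2 represses, had 9.71, 8.90 and 13.1 CPM across shNC versus 26.6, 26.8 and 8.53 CPM across shYthdf2. Of 12 other KLF genes tested 5 were higher (median -0.14), and Klf15, a metabolic regulator of cardiomyocytes, was lowest in shNC 3 (36.5, 49.8 and 7.49 CPM against 17.7, 16.6 and 19.2 CPM). Among 10 partners and relatives of the NR4A receptors 5 were higher (median -0.01). Of 8 genes of AU-rich mRNA decay 6 were higher (median 0.28), among them Hnrnpd at 53.6, 57.6 and 74.0 CPM against 80.0, 86.3 and 89.0 CPM (edgeR adjusted p = 0.976).

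Markers of other cells moved between the same libraries. The 12 neutrophil markers summed to 399, 555 and 477 CPM across shNC 1, 2 and 3 and to 867, 924 and 217 CPM in shYthdf2 1, 2 and 3, a sum in which Lcn2 took 250.2, 336.4 and 40.8 CPM of the shNC libraries. Their median centred log2 level was -0.94, -0.30 and 0.43 for shNC 1, 2 and 3 and 0.92, 0.94 and -1.07 for shYthdf2 1, 2 and 3. Of the 12 markers 8 had shNC 3 above both other shNC libraries, 12 had shYthdf2 3 below both others, and 8 had both. Both together held in 7 of the 10 factors and in 17.6% of all genes tested. They held in 4 of 12 macrophage and monocyte, 0 of 12 endothelial and 0 of 10 fibroblast markers. The 12 macrophage and monocyte markers summed to 543, 524 and 1237 CPM and to 804, 823 and 874 CPM, with shNC 3 highest as for Myc, Egr3 and Nr4a2. Endothelial markers, 12 in number, summed to 2795, 2113 and 1562 CPM and to 2268, 2289 and 1929 CPM, lowest in shNC 3 and shYthdf2 3 as for Klf2 and Klf4. The 10 fibroblast markers summed to 1104, 908 and 1749 CPM and to 1086, 1074 and 1827 CPM. No marker of these 4 lists was at 0 counts in any library. Of the 12 neutrophil markers 11 were higher in shYthdf2, of the macrophage and monocyte markers 7 of 12, of the endothelial 5 of 12 and of the fibroblast 8 of 10, and 0 passed. The part of these cell types in the levels of the factors was not tested.

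Other lists differed between libraries as well, and their counts stand beside 3.65% of all genes at an unadjusted edgeR p under 0.05, 9.51% not overlapping and 0.187% called by DESeq2. Platelet markers were higher in 11 of 11, with 9 at an unadjusted p under 0.05. They summed to 49.1, 40.7 and 66.4 CPM across shNC 1, 2 and 3 and to 212.6, 218.9 and 61.3 CPM across shYthdf2 1, 2 and 3, so the high libraries were the close pair shYthdf2 1 and 2. A single platelet marker was at 0 counts in each of shNC 2, shNC 3 and shYthdf2 3. Erythroid transcripts were lower in 9 of 9, with 6 at an unadjusted p under 0.05, at 495 to 3742 CPM in sum under shNC and 631 to 660 CPM under shYthdf2, and 1 was at 0 in shNC 3. Smooth muscle and pericyte markers were higher in 6 of 9, with 4 at an unadjusted p under 0.05 (Acta2, Tagln, Myh11 and Cnn1, log2 fold changes of 1.19 to 2.06) and 3 not overlapping. Their sum was 1094, 1077 and 569 CPM in shNC 1, 2 and 3. In shYthdf2 1, 2 and 3 it was 1157, 1174 and 958 CPM, so shNC 3 and shYthdf2 3 were lowest, as for the endothelial markers. This sum held Rgs5, whose log2 fold change was -0.41. Lymphocyte markers summed to 3.82 to 11.7 CPM over the 6 libraries, with 3 at 0 in shNC 2 and 2 in shYthdf2 1. Cardiomyocyte markers were lower in 8 of 12, and the 1 marker at an unadjusted p under 0.05, Ttn, which encodes titin, was higher without overlap (log2 fold change 1.09). None of these markers passed edgeR, DESeq2 called 2 platelet and 1 erythroid gene, and their part was not tested either.

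**Figure D5:**
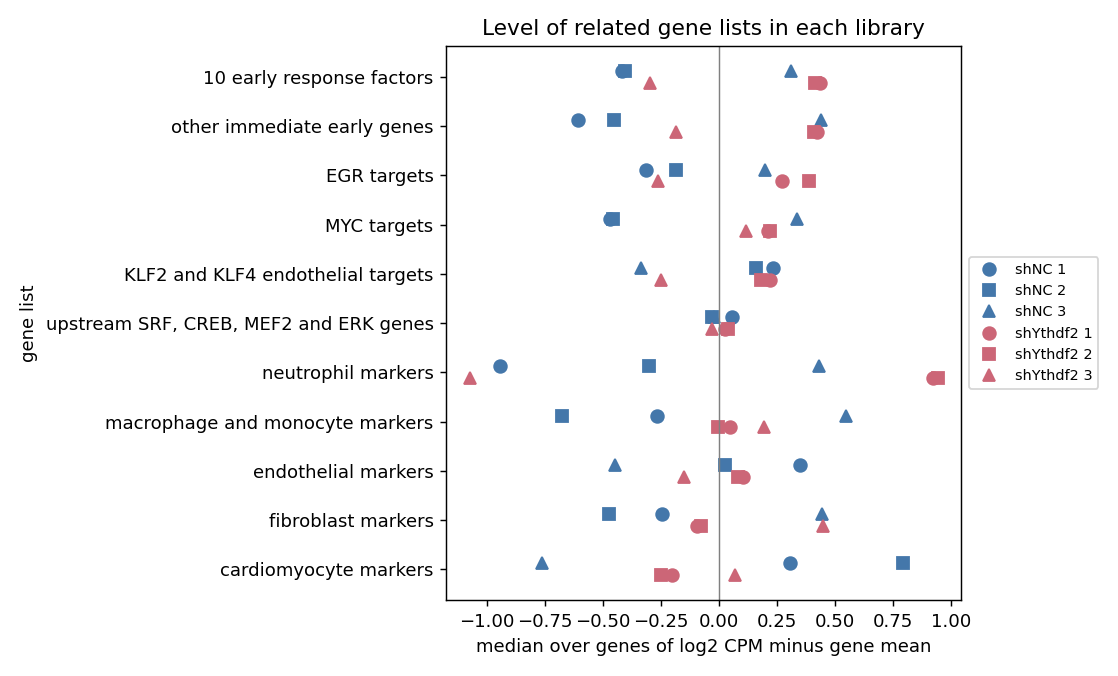
Median over the genes of each list of the log2 CPM less the gene mean (horizontal axis), 1 point per library, shNC blue and shYthdf2 red, replicates 1, 2 and 3 as circle, square and triangle. For the 10 factors, the other immediate early genes and the EGR targets, shNC 3 stands near shYthdf2 1 and 2. For the factors and the EGR targets shYthdf2 3 stands near shNC 1 and 2. For the other immediate early genes shYthdf2 3 lies between, at -0.18, with shNC 1 and 2 at -0.61 and -0.45 and shYthdf2 1 and 2 at 0.42 and 0.41. The upstream genes stay near 0.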

How the data were processed

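Mouse heart RNA was extracted with Trizol and prepared as 6 libraries with an Illumina TruSeq RNA kit, per the labels' protocols. Per the file headers, the deposited table holds raw counts per gene and the authors' FPKM. Genes without counts stand at 0.0001 FPKM in it. Bowtie 0.12.2 and build mm8 are named by the submitters' processing notes, without saying what for. No source used here gives the counting tool, the annotation or the coordinate build, so coordinates are printed as deposited. Counting is not stated to use strand.

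The factors, gene lists and ratios were chosen with earlier results of these data known. Named genes are the 10 factors, genes from the 3 smallest p of a list or others (Srf, Creb1, Nos3, Lcn2, Rgs5 and Cnn1, picked after values were seen, as were genes named because their groups did not overlap), all genes past the threshold, and the 3 nearest profiles (mean of at least 1 CPM, SD at least 0.5 times that of the factor). Main test: two-sided edgeR 4.0.16 quasi-likelihood test in R 4.3.3 on counts, TMM scaling, filterByExpr, Benjamini-Hochberg over 20489 genes, threshold 0.05. SE and 95% intervals come from the F statistic. CPM use TMM-scaled library sizes. Alternatives were other scalings and filters, DESeq2 1.42.0, robust dispersion, limma 3.58.1 with trend on log2(FPKM + 0.1, 0.5 or 1), a replicate block, shYthdf2 1 and 2 summed, and each library left out. The edgeR procedure was tested on data simulated at the dispersion of these libraries. It recovered 4% of 2-fold, 64% of 4-fold and 94% of 8-fold changes, with 6 false calls. A factor that did not pass may therefore still differ by 2-fold or more. Fragment counts carry no molecular identifiers, so limits cover counting error only.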

Additional observations from a re-analysis of the deposited data

How the results depend on the processing

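Over 18 alternatives to the main test, the 10 factors gave 180 log2 fold changes, of which 171 kept their direction and side of the threshold, 8 changed sign and 1 (Egr2 without shNC 3) passed. With 1 library left out the range was -0.18 to 1.00 for Egr3, -0.33 to 0.19 for Nr4a2, -0.018 to 0.34 for Nr4a3, -0.27 to 0.13 for Klf2 and -0.074 to 1.03 for Myc. It was 0.42 to 0.99 for Egr1, 1.13 to 2.94 for Egr2, 0.42 to 0.98 for Nr4a1, -0.82 to -0.10 for Klf4 and 0.25 to 0.73 for Klf6, the value furthest from 0 being without shNC 3 for Egr1, Egr2, Klf4 and Klf6 and without shYthdf2 3 for Nr4a1. The count of factors past the threshold was 0 to 1 over the 6 fits with 1 library left out and 0 under each other alternative. The count of factors whose groups do not overlap was 1 on TMM-scaled CPM, 0 on FPKM and 0 on CPM of unscaled totals. Over all genes, 2 passed in the main test, 1 on library totals, 47 with DESeq2, 0 with limma on log2(FPKM + 0.5), 1 with + 0.1, 0 with + 1, 0 with shYthdf2 1 and 2 summed, and 0 to 211 with 1 library left out, the 211 being without shNC 3. The median log2 fold change of all genes was -0.01 with TMM and -0.05 with upper quartile scaling, the furthest of the scalings. With the replicate block 0 genes and 0 factors passed. The median over the factors, 0.22 in the main test, was 0.45 with the block, 0.42 on log2(FPKM + 0.1) and 0.07 to 0.80 with 1 library left out. Egr2 had an unadjusted p under 0.05 with DESeq2, without a filter, with limma at each added value and with the block, where 5.19%, 2.98%, 3.02% to 3.04% and 3.07% of the genes tested did. Deviations of same-numbered libraries from their group means correlated at -0.01, -0.03 and -0.06 over 20489 genes, so the numbers were not taken to pair them. The causes of these changes were not tested. With 3 libraries a label and a biological coefficient of variation of 48.2%, the 95% intervals of the factors bound what these data can show.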
